A study of Homo sapiens with 16 samples.

Results

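The 10 genes described here are standard transcriptional outputs of the STAT5 and RAS-ERK arms of kinase signaling. They were taken by name from the deposited table of read counts, in which all 10 were found among 25221 genes. PIM1, PIM2, CISH, SOCS1, SOCS2 and SOCS3 stand for STAT5, and DUSP6, SPRY2, SPRY4 and ETV5 for ERK. Counts were present for 9 of them, and SOCS1 had 0 counts in every library.

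RNA was sequenced from MOLM13 and K562 cells after 4 h with DMSO or with 20 μM Ro 08-2750 (Ro), a small molecule that blocks RNA binding by MSI2, with 4 libraries per group and 16 in all. MOLM13 is an acute myeloid leukemia line of FAB type M5a that is positive for MLL-AF9 and carries a mutant FLT3 receptor, and it was used at passages 8 to 12. K562 is an erythroid line of blast-crisis chronic myeloid leukemia that is positive for BCR-ABL, and it was used at passages 12 to 18. All 4 groups received 0.1% DMSO, and the libraries of each line were labelled as pairs 1 to 4. Each condition was studied in a single line per disease, so a difference between the lines cannot be told apart from a difference between the driver kinases. The labels do not give whether the 4 libraries of a group came from separate cultures, and the p-values below measure only the spread between these libraries.

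Mutant FLT3 and BCR-ABL are constantly active tyrosine kinases. Both phosphorylate STAT5, which enters the nucleus and binds paired TTC and GAA half-sites in front of its target genes, and both feed RAS, RAF, MEK and ERK, which act through ETS and other factors. Several of the outputs switch the same pathways off, so their mRNAs are read both as a measure of pathway activity and as its brake: CISH and the SOCS proteins restrain cytokine receptors, JAKs and STAT5, DUSP6 removes phosphate from ERK, and the Sprouty proteins SPRY2 and SPRY4 restrain RAS-ERK signaling upstream. The kinases PIM1 and PIM2 promote survival and growth, and ETV5 is an ETS transcription factor.

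The letters TTCNNNGAA, the paired half-site bound by STAT proteins, were searched in the RefSeq promoters (GRCh38.p14, 250 bases before to 50 after each start), of which 11 promoters of 8 members had an entry. The motif reads the same on both strands. CISH, which encodes a SH2-domain inhibitor of STAT5 signaling, held 4 matches, and the stretch that contains all 4 is shown because CISH was the member with the smallest p-value after Ro in MOLM13. Capitals mark the matches, the gene lies on the minus strand, and the stretch runs from 250 to 95 bases upstream of the start.
CISH, chr3:50611869-50612024: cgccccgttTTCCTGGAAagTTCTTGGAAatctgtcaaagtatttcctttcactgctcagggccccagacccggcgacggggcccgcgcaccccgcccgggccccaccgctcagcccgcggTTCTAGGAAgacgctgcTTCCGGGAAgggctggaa

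The 4 matches began 241, 230, 129 and 112 bases upstream of the start. Among 35114 RefSeq promoters of the same length, 7.66% held at least 1 match and 7 promoters, 0.0199%, held at least 4. The 10 promoters of PIM1, PIM2, SOCS1, SOCS3, DUSP6, SPRY2 and SPRY4 held 0 matches, and SOCS2 and ETV5 had no entry. The letters CCGGAAG, searched on both strands as the core bound by ETS factors, were found once in the CISH promoter, where they overlapped the fourth match, in 0 of the other 10 promoters and in 10.3% of all promoters. Promoters may hold sites outside these windows, so a window without a match describes only its letters.

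Libraries held between 3143129 and 43571060 counts, and the shallowest were K562 DMSO of pair 2 (3143129) and pair 4 (4383241). Levels are given as CPM, the usual read counts scaled to a common library total, with TMM library sizes, the edgeR scaling that equalizes most genes. A gene under 3 counts was not told from 0, which is 0.0679 CPM in the largest library and 0.861 CPM in the smallest, and this limit covers counting error only. Markers of each line were read first. HOXA9, a MLL-AF9 target, had 0 counts in the 8 K562 libraries, and the erythroid genes GATA1, KLF1 and TAL1 had at most 4 counts in any MOLM13 library. The erythroid heme synthesis gene ALAS2 was present in MOLM13 at group means of 1.06 (DMSO) and 1.41 CPM (Ro), on 8 to 28 counts per library. MEIS1, CD33, SPI1 and LYZ, also taken as MOLM13 markers, were present in K562 too, at group means from 5.66 to 27.8 CPM. In DMSO, CD33 stood at 14.9 CPM in MOLM13 and 12.3 in K562 and LYZ at 23.4 and 17.8, with libraries that overlapped between the lines. MEIS1 stood at 95.8 and 27.8 CPM and SPI1 at 17.9 and 6.05, without overlap. Of the lymphoid markers, CD3D had group means of 4.59 (DMSO) and 3.89 CPM (Ro) in K562, and those of CD3E, MS4A1 and CD79A were 0.537 CPM at most in either line. The part of these genes in the results was not tested.

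The first question was how the output genes stood in each line without Ro. Of the 9 genes tested, 7 differed between MOLM13 and K562 in DMSO at an adjusted p under 0.05 (edgeR, quasi-likelihood F test, Benjamini-Hochberg over all genes). SOCS2, DUSP6 and SPRY2 were higher in MOLM13 and PIM1, PIM2, CISH and SOCS3 were higher in K562, and in all 7 the DMSO libraries of the lines did not overlap. The lines differed in much of the transcriptome: 41.3% of 15268 genes passed the same test (21.1% higher and 20.3% lower in MOLM13), and 39.2% did not overlap. So a call on a single member is common here, and the size of the difference tells more. With bulk RNA, fewer cells that make an mRNA and less of it per cell cannot be told apart.

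**Figure D1:**
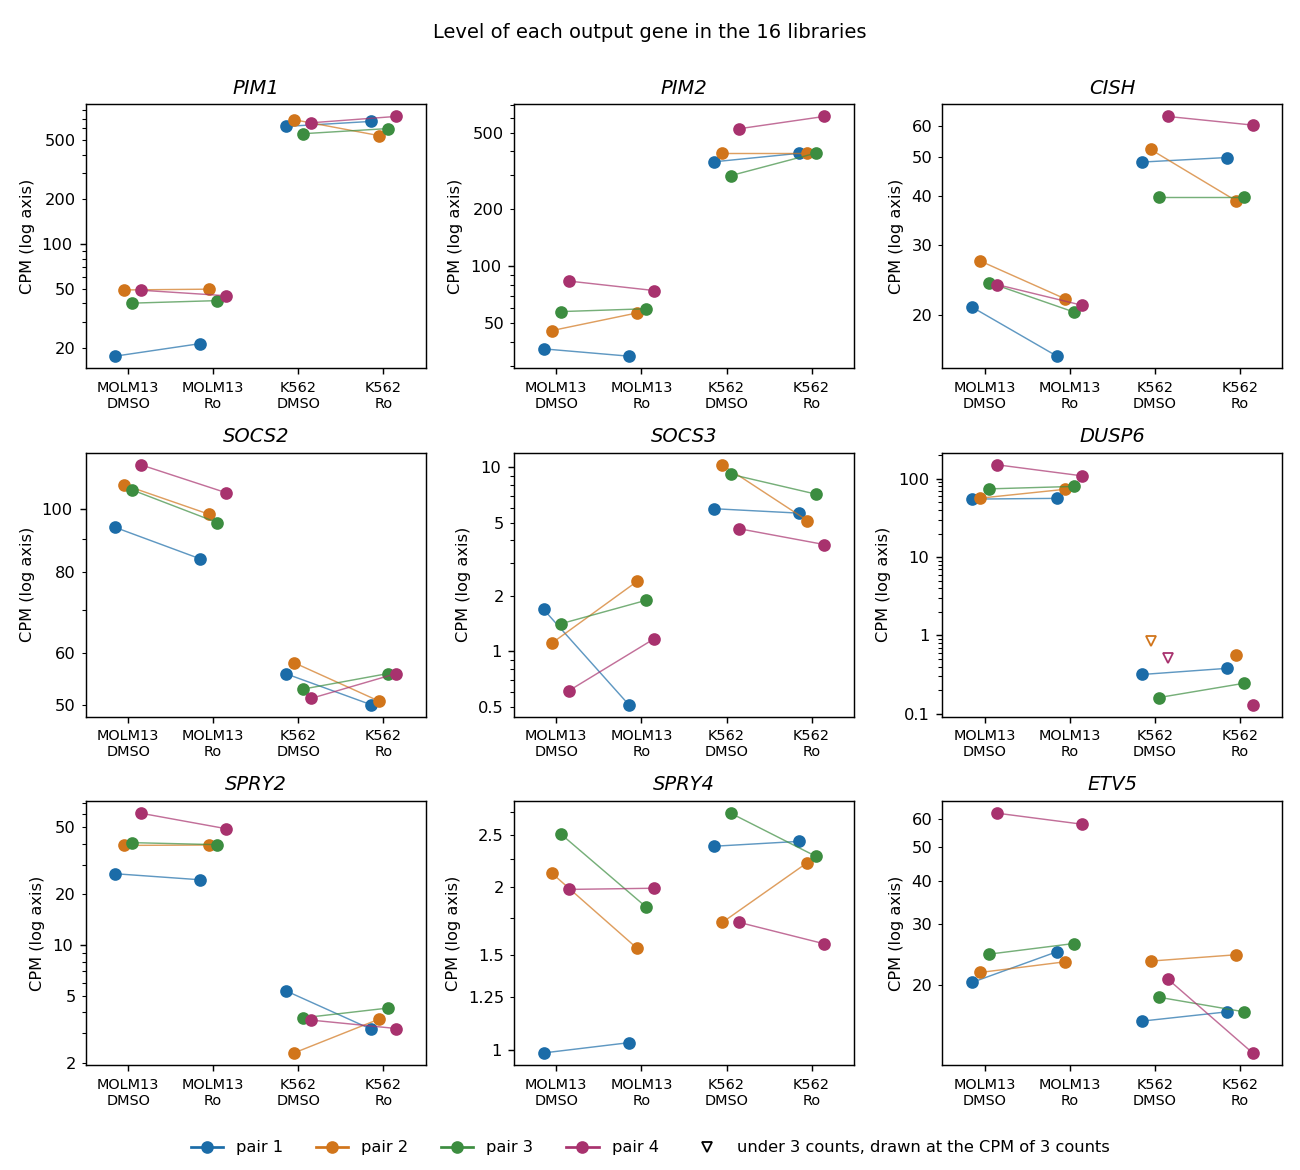
CPM (log axis, a scale of its own in each panel) of the 9 output genes with counts, by group, with a point per library colored by pair and a line joining the DMSO and Ro libraries of a pair. Open triangles mark the K562 DMSO libraries of pairs 2 and 4, which had 0 DUSP6 counts and are drawn at the CPM of 3 counts. PIM1 and PIM2 stood at 298 CPM or more in every K562 library and at 83.4 or less in every MOLM13 library, DUSP6 was reversed, and within each line the DMSO and Ro points overlapped.

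Among the STAT5 outputs, PIM1 (Entrez 5292) stood at 619, 687, 553 and 655 CPM in the K562 DMSO libraries of pairs 1 to 4. The MOLM13 DMSO libraries held 17.7, 49.3, 40.2 and 49.1 CPM. Every K562 library lay far above every MOLM13 library, and the fitted difference was 16.1-fold (log2 -4.01 for MOLM13 against K562, SE 0.317, adjusted p = 2.94e-07, edgeR). PIM2 (Entrez 11040), the sister kinase, stood at 352, 393, 298 and 525 CPM in K562 and at 36.8, 45.9, 57.7 and 83.4 CPM in MOLM13. Its difference was 7.03-fold (log2 -2.81, SE 0.295, adjusted p = 4.13e-06, edgeR).

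The STAT5 feedback inhibitors did not all follow the PIM kinases. CISH (Entrez 1154) stood at 48.6, 52.3, 39.8 and 63.3 CPM in K562 DMSO and at 21.0, 27.4, 24.2 and 23.9 CPM in MOLM13 DMSO, a 2.11-fold difference (log2 -1.08, SE 0.205, adjusted p = 0.000816, edgeR). SOCS3 (Entrez 9021), a brake on JAK kinases best known downstream of STAT3, was low in both lines, at 5.95, 10.3, 9.15 and 4.63 CPM in K562 and 1.69, 1.11, 1.41 and 0.612 CPM in MOLM13. It was 6.56-fold higher in K562 (log2 -2.71, SE 0.371, adjusted p = 4.9e-05, edgeR). SOCS2 (Entrez 8835), which restrains growth hormone and other cytokine receptors, went the other way: it stood at 55.8, 58.0, 52.8 and 51.1 CPM in K562 and at 93.7, 109, 107 and 117 CPM in MOLM13. That was 1.96-fold higher in MOLM13 (log2 0.97, SE 0.183, adjusted p = 0.000748, edgeR), around means of 107 ± 9.69 and 54.4 ± 3.06 CPM (SD, n = 4).

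SOCS1 (Entrez 8651), the JAK inhibitor of the family, had 0 counts among the 317982807 counts of the 16 libraries. In GENCODE v29 (GRCh38) it lies at chr16:11254405-11256200 on the minus strand, wholly inside RMI2 on the plus strand. Of 551 protein-coding genes placed inside a gene of the opposite strand only, 503 (91.3%) had 0 counts in all libraries, against 847 of 12540 genes (6.75%) that overlap no gene. Its 0 therefore cannot be read as a lack of SOCS1 mRNA in either line. No other member had its last 1000 bases overlapped by another annotated gene.

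Of the ERK outputs, DUSP6 and SPRY2 differed between the lines. DUSP6 (Entrez 1848), the cytoplasmic ERK phosphatase, stood at 55.1, 56.7, 74.4 and 151 CPM in MOLM13 DMSO. In K562 DMSO it had 14, 0, 4 and 0 counts, 18 in all, or 0.317, 0, 0.161 and 0 CPM. The mRNA was thus near the limit of detection in K562, and the fitted difference was 389-fold with a 95% interval from 173 to 871 (log2 8.60, SE 0.54, adjusted p = 3.83e-08, edgeR). It was 9.46 on the log2 scale without the K562 library of pair 1, which held 14 of the 18 counts. SPRY2 (Entrez 10253) stood at 26.5, 39.0, 40.5 and 60.5 CPM in MOLM13 and at 5.38, 2.30, 3.71 and 3.60 CPM in K562, a 10.5-fold difference (log2 3.39, SE 0.306, adjusted p = 1.02e-06, edgeR).

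The other 2 ERK outputs did not pass the test between the lines. SPRY4 (Entrez 81848) was low throughout, at 1.90 ± 0.650 CPM in MOLM13 and 2.14 ± 0.507 in K562 DMSO (mean ± SD, n = 4), and its difference had a 95% interval from -0.85 to 0.46 on the log2 scale (edgeR adjusted p = 0.648). ETV5 (Entrez 2119) stood at 20.4, 21.8, 24.6 and 62.5 CPM in MOLM13 and at 15.8, 23.5, 18.5 and 20.9 CPM in K562. Only the MOLM13 library of pair 4 stood far above the rest, and the log2 difference was 0.73 (SE 0.338, edgeR adjusted p = 0.103), or 0.21 without that library. So DUSP6 and SPRY2 were high in MOLM13 while SPRY4 and ETV5, from the same group of ERK outputs, were at levels whose libraries overlapped between the lines.

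The direction of all 7 differences held under each scaling. Total counts in place of TMM moved the median log2 difference of all genes from -0.00471 to -0.408. The share of calls that were higher in MOLM13 fell from 50.9% to 28.8%. SOCS2 came to 0.56 (edgeR adjusted p = 0.0255) and DUSP6 to 8.27. The 7 genes were called in every alternative in which they were tested, 17 for each and 16 for SOCS3. In this comparison the replicate block joined MOLM13 and K562 libraries of the same number. The labels number pairs within each line and do not match them across lines, so the blocked fits are not a further check here.

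**Figure D2:**
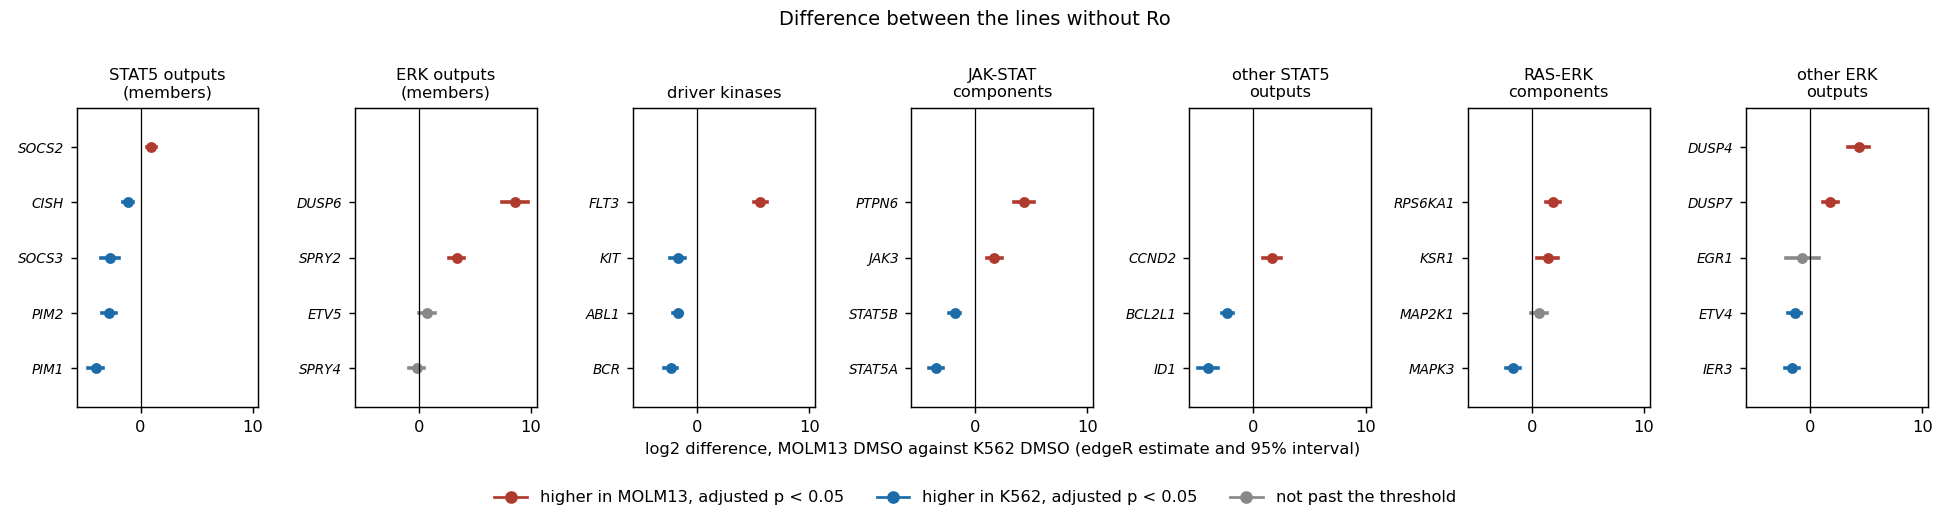
Log2 difference between MOLM13 and K562 in DMSO (edgeR estimate with 95% interval, 4 libraries per line) for the tested output genes and the genes of the pathway lists that the text names, in red where higher in MOLM13 and blue where higher in K562 at an adjusted p under 0.05. DUSP6, at 8.60, lies farthest to the right, PIM1 lies at -4.01, and STAT5A and FLT3 lie at -3.52 and 5.63.

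The mRNAs of the driver kinases and pathway parts were read beside the outputs. FLT3 stood at 160 ± 19.4 CPM in MOLM13 and 3.09 ± 0.940 in K562, a 49.6-fold difference (log2 5.63, SE 0.272, edgeR adjusted p = 4.67e-09). BCR was 5.13-fold, ABL1 3.32-fold and KIT, a receptor of the same family as FLT3, 3.29-fold higher in K562, and all 3 passed the test. A 3′ count of ABL1 takes in both the normal and the BCR-ABL mRNA, and a count of BCR only the normal one and others that keep its 3′ end.

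Of 17 JAK-STAT components, 4 were higher in MOLM13 and 2 in K562, with a median log2 difference of 0.328 against -0.00471 for all genes. The 2 higher in K562 were both STAT5 genes: STAT5A stood at 338 ± 19.3 CPM in K562 and 29.5 ± 13.1 in MOLM13 (11.4-fold, edgeR adjusted p = 5.89e-07), and STAT5B at 107 ± 32.8 and 29.8 ± 2.07 CPM (3.59-fold, edgeR adjusted p = 3.26e-05). PTPN6, which encodes the phosphatase SHP-1 that shuts off JAKs and receptors, was 20.5-fold higher in MOLM13, and JAK3 was 3.28-fold higher. PTPN6 had only 1 to 55 counts per library in K562 DMSO, so the size of its fold is uncertain. Of 11 other STAT5 outputs tested, 1 was higher in MOLM13 and 3 in K562, with a median of 0.0202. ID1, an inhibitor of differentiation, was 16.8-fold and BCL2L1, which encodes BCL-XL, was 5.1-fold higher in K562, while the cyclin gene CCND2 was 3.15-fold higher in MOLM13. The log2 difference of ID1 went from -4.07 to -4.70 without the MOLM13 library of pair 4. CCND2 lies inside another gene of its own strand, so its count is uncertain.

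Of 18 RAS-ERK components, 2 were higher in MOLM13 and 5 in K562, with a median of -0.196. MAPK3, which encodes the kinase ERK1, was 3.22-fold higher in K562. The ERK-activated kinase gene RPS6KA1 was 3.72-fold and the scaffold gene KSR1 2.73-fold higher in MOLM13 (KSR1 edgeR adjusted p = 0.0161), and KSR1 lost its call under total-count scaling (0.0692), without the MOLM13 library of pair 2 (0.0671) and without the K562 library of pair 1 (0.0545). Of 12 other ERK outputs tested, 5 were higher in MOLM13 and 2 in K562, with a median of -0.107. DUSP4, a nuclear ERK phosphatase, was 20.1-fold and DUSP7, a cytoplasmic one, 3.52-fold higher in MOLM13, whereas IER3, an early response gene, was 3.05-fold and the ETS factor gene ETV4 2.57-fold higher in K562. DUSP4 had only 3 to 16 counts per library in K562 DMSO, so the size of its fold is uncertain. ETV4 lies inside a gene of the opposite strand, and its count is uncertain without the strand setting. The lists thus held genes on both sides, and the 4 medians lay between -0.196 and 0.328. Over these lists and the driver kinases, 28 of 62 tested genes passed, beside 41.3% of all genes, so a call on a listed gene was common.

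The second question was whether 4 h with Ro moved the outputs. In MOLM13, 0 of 9 tested members passed the adjusted threshold, and in K562 0 of 8, since DUSP6 had too few counts there. For every tested member the DMSO and Ro libraries overlapped, in both lines. Over all genes the share called was 0% of 15031 in MOLM13 and 0% of 15227 in K562 in the same edgeR fit, with 175 and 187 genes at an unadjusted p under 0.05 and 1 and 0 genes called by DESeq2, while 1.34% and 1.2% of genes did not overlap. The median log2 change of the tested members was -0.058 in MOLM13 and -0.108 in K562, beside 0.00043 and 0.0211 for all genes.

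When the pair number entered the fit as a replicate block, the share called rose to 2.11% in MOLM13 (141 genes higher, 176 lower) and stayed at 0% in K562, where 322 genes had an unadjusted p under 0.05 and DESeq2 with the block called 2. The block called 0 of the 9 members in MOLM13 and 0 of the 8 in K562. Its intervals were narrower in MOLM13 and limit how large a change could have been missed there under that fit. CISH is given with both fits and the other members with the blocked fit. Without the block the MOLM13 intervals ran from -0.68 to 0.75 for PIM1, -0.75 to 0.64 for DUSP6 and -0.84 to 0.94 for ETV5.

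CISH was the member closest to the threshold. With Ro it stood at 15.8, 22.0, 20.4 and 21.2 CPM in MOLM13, against 21.0, 27.4, 24.2 and 23.9 with DMSO. It was lower in 4 of 4 pairs, by 0.40, 0.32, 0.24 and 0.17 on the log2 scale within pairs, though the 2 groups overlapped because pair 1 was low in both. The log2 change was -0.26 without the block (SE 0.147, 95% interval -0.59 to 0.06, edgeR adjusted p = 1) and -0.25 with it (SE 0.0877, interval -0.44 to -0.07, unadjusted p = 0.00847, edgeR adjusted p = 0.136). SOCS2 was likewise lower in 4 of 4 pairs, at 83.8, 98.2, 95.3 and 106 CPM with Ro, with changes from -0.14 to -0.17 within pairs. Its blocked change was -0.14 (SE 0.0682, interval -0.28 to 0.01, edgeR adjusted p = 0.313). A fall in all 4 pairs was not rare in MOLM13, where 15.4% of all tested genes fell in 4 of 4 pairs.

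In K562, the same inhibitors showed no such order. CISH stood at 49.9, 38.9, 39.8 and 60.2 CPM with Ro, with a blocked log2 change of -0.11 (SE 0.139, interval -0.43 to 0.20), and SOCS2 at 50, 50.6, 55.8 and 55.8 CPM, with -0.04 (SE 0.130, interval -0.34 to 0.26). SOCS3 was lower in 4 of 4 pairs of K562, at 5.63, 5.13, 7.14 and 3.80 CPM with Ro, by 0.08, 1.00, 0.35 and 0.28 within pairs. Its blocked change was -0.42 (SE 0.216, interval -0.91 to 0.08, edgeR adjusted p = 0.947), and 4.41% of tested genes were lower in 4 of 4 pairs of K562. The pair 2 DMSO library, where SOCS3 was highest, was also the smallest library. In MOLM13 SOCS3 stood at 0.514, 2.40, 1.89 and 1.17 CPM with Ro, lower in pair 1 and higher in the other 3 pairs, on 6 to 41 counts per library, with a blocked change of 0.53 (SE 0.312, interval -0.12 to 1.17, edgeR adjusted p = 0.4).

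**Figure D3:**
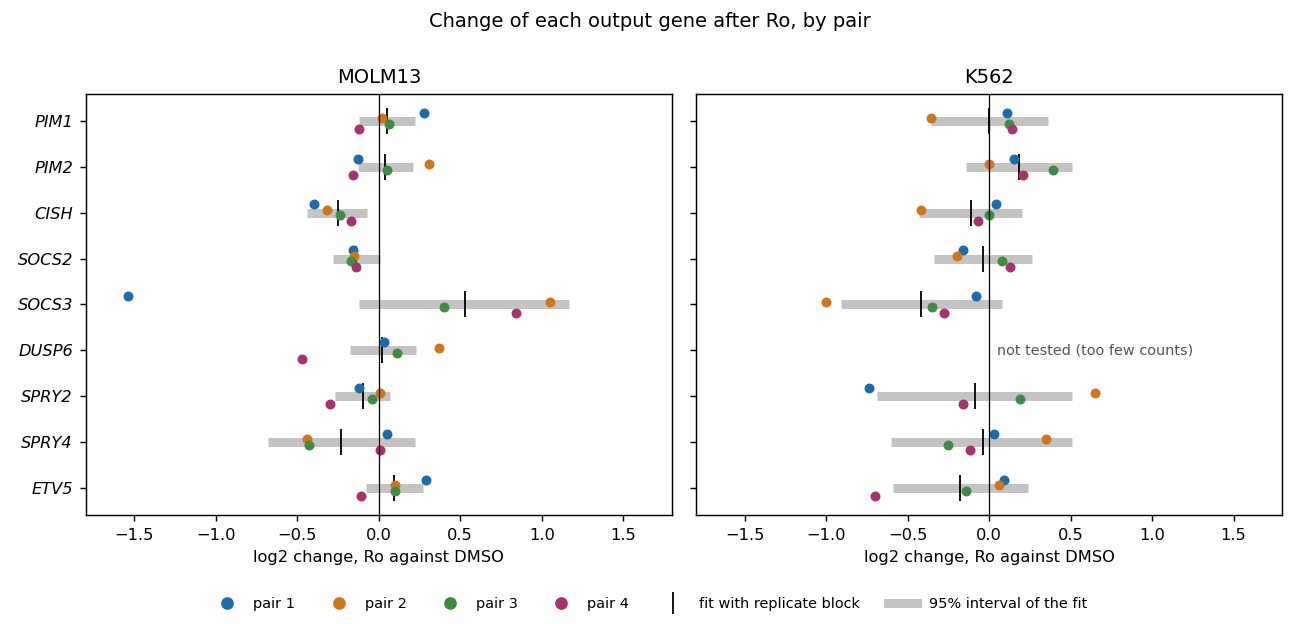
Log2 change of the output genes with Ro against DMSO in each pair (colored points), with the estimate (black tick) and 95% interval (gray bar) of the edgeR fit with the replicate block, in MOLM13 (left) and K562 (right). All 4 MOLM13 points of CISH and SOCS2 and all 4 K562 points of SOCS3 lie below 0, and no change passed the adjusted threshold in either line.

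The PIM kinases did not pass the test with Ro, and their intervals in MOLM13 were narrow with the block. PIM1 stood at 21.5, 49.9, 41.8 and 45.1 CPM with Ro, a blocked log2 change of 0.05 (SE 0.081, interval -0.12 to 0.22), and PIM2 at 33.7, 56.8, 59.7 and 74.4 CPM, 0.04 (SE 0.0835, interval -0.13 to 0.21). A change of PIM1 or PIM2 beyond 1.16-fold upward or 0.912-fold downward lay outside these 95% intervals. Without the block the intervals reached from 0.626-fold to 1.68-fold for PIM1 and from 0.673-fold to 1.53-fold for PIM2. In K562, PIM1 stood at 669, 537, 599 and 723 CPM, a change of 0.000182 with an interval from -0.36 to 0.36. PIM2 stood at 390, 393, 391 and 609 CPM in K562, a change of 0.18 (SE 0.143, interval -0.14 to 0.51), and its pair 4 library lay far above the other 3.

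No ERK output passed the test with Ro. In MOLM13, DUSP6 stood at 56.3, 73.6, 80.0 and 109 CPM with Ro, higher in 3 pairs and lower in pair 4, where DMSO held 151 CPM, and its blocked change was 0.02 (SE 0.0989, interval -0.18 to 0.23). SPRY2 stood at 24.4, 39.2, 39.4 and 49.0 CPM (-0.10, SE 0.0812, interval -0.27 to 0.07). ETV5 stood at 25.0, 23.4, 26.4 and 58.1 CPM (0.09, SE 0.0849, interval -0.08 to 0.27). SPRY4, on 7 to 68 counts per library, had an interval from -0.68 to 0.22. A fall of SPRY4 down to 0.623-fold thus lay within its interval.

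In K562 the ERK outputs with enough counts gave wider intervals. SPRY2 stood at 3.19, 3.65, 4.24 and 3.21 CPM with Ro (blocked change -0.09, interval -0.69 to 0.51), ETV5 at 16.8, 24.5, 16.8 and 12.8 CPM (-0.18, interval -0.59 to 0.24) and SPRY4 at 2.43, 2.22, 2.28 and 1.57 CPM (-0.04, interval -0.60 to 0.51). DUSP6 had 5, 10, 6 and 4 counts with Ro, 25 in all against 18 with DMSO, and was not tested in K562. It stayed near the limit of detection in K562 with or without Ro.

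Whether the response differed between the lines was tested with the interaction of line and Ro over all 16 libraries, given as the change in MOLM13 minus that in K562. It called 0 of 9 members and 0% of 16224 genes in edgeR without the block (218 at an unadjusted p under 0.05) or with it (975), and DESeq2 with the block called 3. For DUSP6, which passed the count filter on its MOLM13 libraries, this test cannot decide, because its K562 counts were near the limit of detection. The member with the smallest p was SOCS3, with 0.90 on the log2 scale (SE 0.428, interval -0.03 to 1.83, edgeR adjusted p = 0.766 with the block). For CISH, which was lower in 4 of 4 pairs of MOLM13, the difference between the lines was -0.16 (SE 0.154, interval -0.49 to 0.17, edgeR adjusted p = 0.803 with the block). The interaction and the comparisons with Ro share their DMSO libraries with the comparison of the lines.

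The other pathway genes were followed with Ro in the same way. Without the block, 0 of the 64 tested genes of the 5 lists passed in MOLM13 and 0 of the 60 tested in K562. With the block, 3 passed in MOLM13 and 0 in K562, beside 2.11% and 0% of all genes. These 3 are named because they passed the blocked fit, so their agreement between pairs is not further support. MAP2K1, which encodes the ERK kinase MEK1, went from 26.4 ± 11.0 to 32.7 ± 13.9 CPM and was higher in 4 of 4 pairs (log2 0.33, SE 0.0853, edgeR adjusted p = 0.0465 with the block, 1 without). DUSP4 went from 10.6 ± 3.56 to 14.9 ± 4.91 CPM and was higher in 4 of 4 pairs (0.48, SE 0.116, edgeR adjusted p = 0.0317 with the block, 1 without). EGR1, an immediate early gene induced by ERK, went from 10.3 ± 13.7 to 4.98 ± 4.46 CPM and was lower in 4 of 4 pairs (-0.78, SE 0.193, edgeR adjusted p = 0.0358 with the block, 1 without). Of the driver kinases, KIT in K562 passed neither fit, but its DMSO and Ro libraries did not overlap (11.3 ± 3.96 and 7.34 ± 1.32 CPM). Its log2 changes within pairs 1 to 4 were -0.69, -0.06, -0.44 and -1.12. In K562, 1.2% of all tested genes did not overlap and 4.41% were lower in 4 of 4 pairs.

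The 3 calls did not all hold in other fits. DESeq2 with the block called DUSP4 (adjusted p = 0.0446), did not call MAP2K1 (0.073) and gave no adjusted p for EGR1. MAP2K1 lost its call without any 1 of the 4 pairs (edgeR adjusted p from 0.0548 to 0.388), though its change stayed between 0.27 and 0.39. DUSP4 lost its call without pair 1, 2 or 3 (0.158, 0.0661 and 0.336), with a change between 0.38 and 0.56 without any 1 pair. The call of EGR1 rested on pairs 1 and 4. EGR1 fell by 0.63 and 1.40 in pairs 1 and 4 but by 0.08 and 0.05 in pairs 2 and 3. Its blocked change was -0.22 without pair 4 (edgeR adjusted p = 0.659) and -0.82 without pair 1 (0.102). The outputs of ERK measured here thus included DUSP4 higher and EGR1 lower with Ro in the same blocked fit, and DUSP6, SPRY2, SPRY4 and ETV5 not past the threshold.

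Differences between the pairs were tested as well, a comparison added after the values had been seen. In MOLM13 a test of the pair terms of the blocked edgeR fit called 5 of 9 members, PIM1, PIM2, DUSP6, SPRY2 and ETV5, beside 58.7% of all genes, so the members' share was near the background. Pair 1 was lowest and pair 4 or 2 highest in 4 of the 5: PIM1 spanned 2.41-fold between pairs 1 and 2, and PIM2, DUSP6 and SPRY2 spanned 2.08-fold, 2.16-fold and 1.98-fold between pairs 1 and 4. ETV5 spanned 2.58-fold, with pair 4 highest and pair 2 lowest. CISH and SOCS2 spanned 1.30-fold and 1.16-fold and did not pass (edgeR adjusted p = 0.103 and 0.233).

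In K562 the same test called 0 of 8 members, beside 0.131% of all genes and with PIM2 and CISH at an unadjusted p under 0.05 (0.0193 and 0.047). Their spans were 1.68-fold and 1.57-fold, with pair 4 highest and pair 3 lowest in both. What the libraries of a pair share was not given in the labels, and its part in the levels was not tested.

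**Figure D4:**
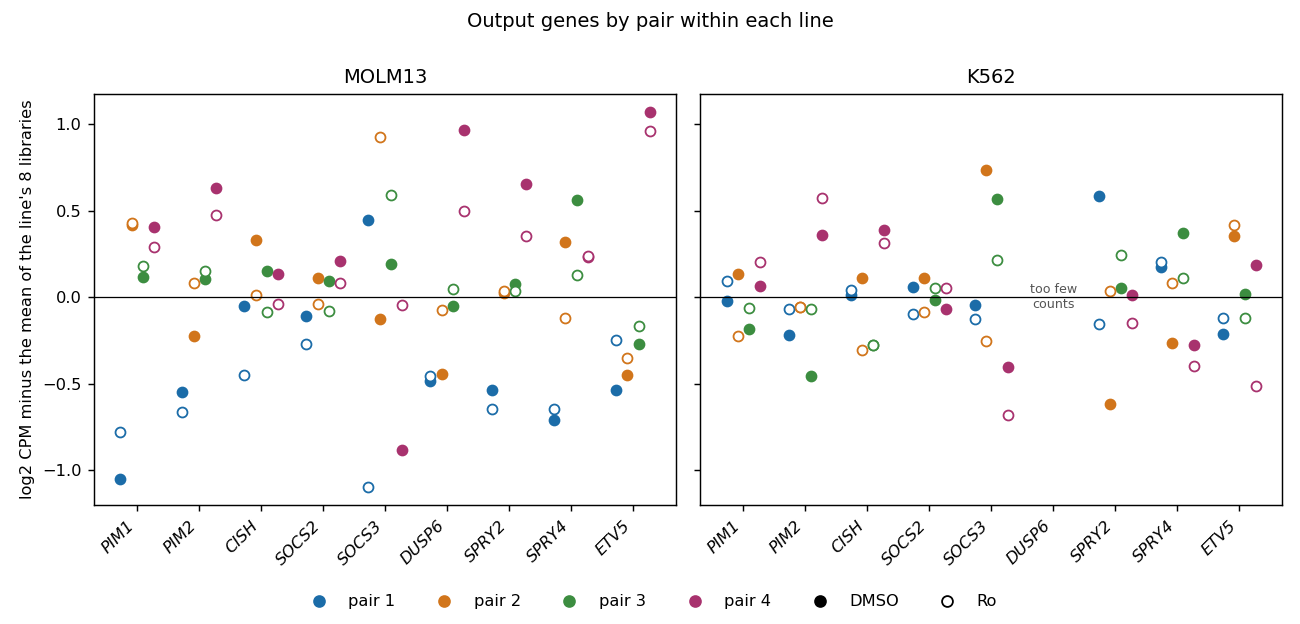
Log2 CPM of each output gene minus the mean of the line's 8 libraries, by pair (color) and treatment (filled, DMSO; open, Ro). In MOLM13 both libraries of pair 1 lie at the bottom for PIM1, PIM2 and SPRY2 and both of pair 4 at the top for PIM2, DUSP6, SPRY2 and ETV5, and DUSP6 is left out of the K562 panel because it had 4 to 14 counts or 0 there.

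The genes whose profile over the 16 libraries was most like that of PIM1 and DUSP6 were found from log2 CPM centred within each line, among genes of at least 10 CPM in both lines. For PIM1 these were LYRM1, TSPAN17 and ULK1, with a root-mean-square difference of 0.172, 0.191 and 0.194 against a median of 0.448 over 7366 genes. For DUSP6 they were ATAD1, EHHADH and ISCU, at 0.451, 0.473 and 0.479 against a median of 0.72. The likeness rests on the spread between libraries within each line and is a description of these libraries. DUSP6 itself did not reach 10 CPM in K562, where it had 0 to 14 counts per library. The K562 part of its profile is therefore uncertain, and so is its likeness to these genes.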

How the data were processed

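The labels give 3′ mRNA sequencing (QuantSeq FWD, with ERCC spike-ins) of total RNA on a HiSeq instrument. The authors deposited whole, unnormalized read counts per Entrez gene for the 16 libraries, and the table holds 0 spike-in rows. The submitters' processing notes name Trim Galore, STAR 2.5.3a, SAMtools 1.5 and hg38. The counting program, its annotation and its strand setting are not given in the sources used here. Genes placed inside another gene were mostly at 0, so overlaps affect counts, and 1425 genes carry no symbol.

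Samples were grouped by line, treatment and pair from the sample titles. No pair of same-group libraries matched within counting noise (lowest chi-square over its degrees of freedom, 9.45). A gene entered a fit with 10 or more counts in 4 or more of its libraries and was tested with edgeR 4.0.16 (TMM, quasi-likelihood F test, Benjamini-Hochberg, threshold 0.05) in R 4.3.3, on all genes at once. The paper names no test and no pairing for the sequencing, so the reference design had no replicate block. The titles number the pairs, and the reference design leaves this pairing out. With the block, the edgeR common coefficient of variation was 0.0814 against 0.254 without it in MOLM13, and 0.206 against 0.247 in K562. Deviations from the group means, correlated over all genes, averaged 0.57 between libraries of the same number in MOLM13 (0.384 to 0.831). In K562 they averaged 0.282 (0.11 to 0.417). Libraries of other numbers averaged -0.162 and -0.093, but taking deviations from group means ties these averages to the same-number ones. They are therefore not separate support. The same-number values were above 0 in both lines, as the pairing in the titles would give, and lower in K562. Log2 values by pair add a prior count of 2. The scripts were tested on simulated counts.

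The alternatives were the block, DESeq2 1.42.0 with and without it, scaling by RLE, upper quartile or total counts, the filter dropped or raised to 50 counts, all 16 libraries in 1 fit, each library or pair left out, and K562 pairs 1 and 3 only. Positions came from GENCODE v29 and promoters from RefSeq.

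The 10 genes and the pathway lists were chosen with earlier results of these data known. Other genes were named by rule: the driver kinases FLT3, ABL1, BCR and KIT, and from each list up to 2 genes per direction with the smallest p in the line difference and up to 3 in a Ro comparison, among those past the threshold, plus the 3 profiles most like PIM1 and DUSP6. Results of a few listed genes are not reported here.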

Additional observations from a re-analysis of the deposited data

Results flagged for a closer look

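Of 36 groups of 4 libraries, 9 genes in 4 groups, 3 held a library far from the other 3 by Dixon's test, and chance flags about 1 group in 20. PIM2 in the K562 Ro library of pair 4 stood at 609 CPM against 390 to 393 in the other 3. ETV5 in the MOLM13 DMSO library of pair 4 stood at 62.5 CPM against 20.4 to 24.6, and in the MOLM13 Ro library of pair 4 at 58.1 CPM against 23.4 to 26.4. The library of pair 4 was the highest in the DMSO group of the same line as well for PIM2 in K562, at 525 CPM.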

How the results depend on the processing

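The 7 calls between the lines were kept under every alternative in which the gene was tested, 17 for each and 16 for SOCS3. The replicate block called MAP2K1, DUSP4 and EGR1 with Ro in MOLM13 and changed no other call of a named gene. The number of genes called with Ro in MOLM13 was 0 in the reference fit, 317 with the replicate block in edgeR, 1 in DESeq2, 260 in DESeq2 with the block, and 0 to 358 when libraries or pairs were left out. With the block it was 106, 187, 49 and 358 without pairs 1, 2, 3 and 4. In K562 it was 2 in DESeq2 with the block and 418 with the block and only pairs 1 and 3 (195 higher, 223 lower of 13667), and for the interaction 3 in DESeq2 with the block. Members were called with Ro in 0 alternatives. Changes near 0 turned sign: DUSP6 in MOLM13 from -0.06 to 0.02 with the block in edgeR, 0.02 in DESeq2 with the block and 0.01 with total counts. PIM1 in K562 went from 0.00427 to -0.01 in DESeq2, in DESeq2 with the block and with RLE size factors, to -0.06 with upper-quartile and total-count scaling, to -0.02 with a minimum of 50 counts and to -0.0025 in the single fit. CISH in K562 was 0.01 with only pairs 1 and 3, and in the interaction SOCS2 was 0.01 with total counts and SPRY2 -0.01 in DESeq2 with the block. Leaving out a library or pair gave, in MOLM13, -0.19 to 0.22 for PIM1, -0.12 to 0.26 for PIM2, -0.23 to 0.36 for DUSP6, -0.26 to 0.10 for SPRY2, -0.34 to 0.57 for ETV5 and -1.89 to 0.59 for EGR1, in K562 -0.08 to 0.11 for PIM1, -0.02 to 0.37 for PIM2, -0.26 to 0.03 for CISH, -0.09 to 0.00202 for SOCS2, -0.27 to 0.16 for SPRY2 and -0.20 to 0.06 for SPRY4, and in the interaction -0.21 to 0.22 for PIM1, -0.36 to 0.08 for PIM2, -0.28 to 0.27 for SPRY2 and -0.22 to 0.71 for ETV5. The cause of these changes was not tested. DUSP6 could not be tested in K562 at its counts.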
